A study of Mus musculus with 2 samples.

Results

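The genes described here are the amino acid transporters of 7 solute carrier families, namely Slc1a, Slc3a, Slc6a, Slc7a, Slc36a, Slc38a and Slc43a, measured in mouse KLS cells with and without TIF1γ. They were chosen by symbol alone from the array's probe set annotation, as every gene whose symbol is one of these stems followed by a number, with Slc6a20a and Slc6a20b kept. The rule gave 60 genes of the 18193 on the array, read by 121 probe sets. No signal entered the rule. The gene group was nevertheless taken up with earlier results of these data known, so its differences are given as descriptions.

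Solute carriers move amino acids across the plasma membrane and out of lysosomes. Several work in series: sodium-coupled carriers such as Slc38a1 and Slc38a2 load the cell with glutamine and other small neutral amino acids, and the exchanger Slc7a5 (LAT1) trades such amino acids for leucine and other large neutral ones. Slc7a5 and its relatives reach the cell surface only as heterodimers with a heavy chain, mostly Slc3a2 (the CD98 heavy chain). Leucine that enters in this way, and arginine, are sensed by the machinery that switches on mTORC1 at the lysosome. This kinase complex drives protein synthesis and growth.

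KLS cells are bone marrow cells that lack lineage markers and carry c-kit and Sca, the fraction that holds stem cells and early multipotent progenitors. One sample came from mice in which the TIF1γ gene (Trim33) had been conditionally inactivated (TIF1γ Δ/Δ), and the other from wild type mice. Each genotype was measured on 1 Affymetrix array, so every difference below compares 2 arrays with no replicate check, and no p-value or SD between samples can be given. The number of arrays limits the precision of every value. The sources used here do not give age, sex, strain, the Cre driver or whether animals were pooled. Of the KLS markers analysed here, all 8 were above background on both arrays, among them Kit with a signal of 495 on the TIF1γ Δ/Δ and 384 on the wild type array. The strongest probe set of the targeted gene, Trim33, gave 172 on the TIF1γ Δ/Δ and 379 on the wild type array, and the sources used here do not say whether it lies in the deleted part.

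Signals are the MAS5 probe set intensities that the authors deposited, on a linear scale. A gene counted as measured on an array when its probe set reached that array's median of all probe sets that are no controls (11.7 for TIF1γ Δ/Δ, 14.4 for wild type). This median served as a floor. The log2 difference is the TIF1γ Δ/Δ minus the wild type log2 signal, less the median difference of -0.024 over probe sets measured on both arrays. Where a gene lay under the floor on 1 array, the floor took the place of its signal there. For genes above both floors, positive differences mean a higher signal in TIF1γ Δ/Δ cells.

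Of the 60 transporters, 34 were measured on at least 1 array and 28 on both, while 26 were measured on neither. Over all genes, 64.4% were measured on at least 1 array. The 3 transporters at least 2-fold higher in TIF1γ Δ/Δ cells were Slc7a5, Slc7a8 and Slc7a1. The 3 at least 2-fold lower were Slc38a5, Slc1a4 and Slc7a7. All 3 higher genes belong to the Slc7a family, and so does 1 of the 3 lower ones. Of all 11724 genes measured on at least 1 array, 2.53% passed 2-fold upwards and 6.01% downwards in TIF1γ Δ/Δ. At 1.5-fold, 7 of the 34 transporters were higher and 9 lower, against 13.5% and 15.3% of all genes. The transporters differed in both directions, with a median of -0.020 over the 34, against 0.00023 over all genes. This median takes in 3 genes above the TIF1γ Δ/Δ floor only, Slc6a4, Slc36a2 and Slc1a1, whose values of -0.11, -0.16 and -0.20 come from the higher wild type floor although their signals were higher in TIF1γ Δ/Δ cells. Over the 28 measured on both arrays the median was 0.19, against 0.044 over all such genes, and 16 of the 28 had a difference above 0, against 53.1% of all genes.

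**Figure D1:**
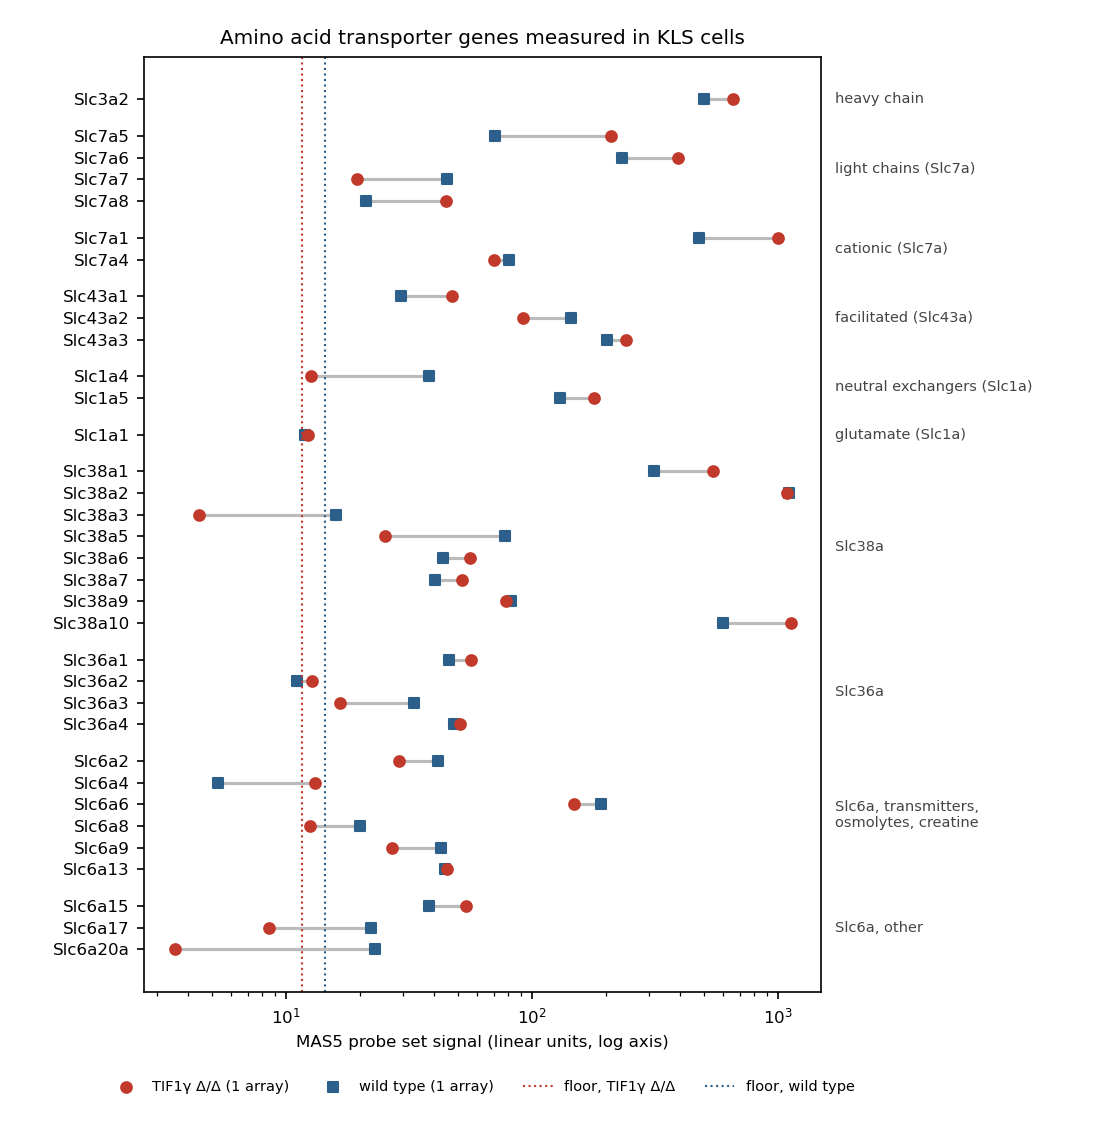
MAS5 signal (log axis) of the 34 measured transporter genes on the TIF1γ Δ/Δ array (red circles) and the wild type array (blue squares), grouped by role; dotted lines mark the floors of 11.7 and 14.4. Slc7a5 at 209.9 against 70.7 is the widest gap to the right, Slc38a5 at 25.2 against 78.1 the widest to the left among genes above both floors.

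Among the heterodimeric exchangers, 3 of the 4 measured light chains were at least 2-fold apart, against 8.55% of all genes measured on at least 1 array. Slc7a5, the leucine exchanger LAT1, gave a signal of 209.9 in TIF1γ Δ/Δ and 70.7 in wild type cells, from its only probe set. This is a log2 difference of 1.59, or 3.02-fold, the largest positive value among the 34 measured transporters. Both signals lay well clear of the floor, and the difference stayed above 2-fold under all 10 alternative settings, from 1.41 to 1.69. With only 1 probe set, the alternative probe set rules among these settings could not change the value.

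The related light chain Slc7a8 (LAT2), which also exchanges neutral amino acids, gave 44.9 on the TIF1γ Δ/Δ and 21.3 on the wild type array (log2 1.10, 2.15-fold). Slc7a6 (y+LAT2), which exchanges cationic for neutral amino acids, gave 394 on the TIF1γ Δ/Δ and 232 on the wild type array (log2 0.79). Its other measured probe set gave 106 and 70.2 on the same arrays (log2 0.63). Slc7a8 was thus past 2-fold from 1 probe set, and Slc7a6 short of it from 2 probe sets with the same direction. With the floor at the 65th percentile the difference of Slc7a8 shrank to 0.25, since its signals were low.

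Slc7a7 (y+LAT1) was the only measured light chain with the opposite direction. Its signal was 19.5 on the TIF1γ Δ/Δ and 45.1 on the wild type array, a log2 difference of -1.18 (2.27-fold lower), and its other probe set lay under both floors. It was under 2-fold with quantile scaling (-0.98), the mean of both probe sets (-0.73), a pseudocount of 16 (-0.75) and the floor at the 65th percentile (-0.56). In humans, loss of this exporter of cationic amino acids causes lysinuric protein intolerance, in which macrophages are affected. Markers of neutrophils and macrophages were lower alongside. Of the 20 in that list, 10 reached the floor in the TIF1γ Δ/Δ sample and 20 in wild type, and their summed signal was 5487 on the TIF1γ Δ/Δ and 48424 on the wild type array. Over all 18193 genes, 11015 reached the floor in TIF1γ Δ/Δ and 11074 in wild type. The macrophage genes C1qa (0.50 against 246.9) and Adgre1 (8.38 against 139.8) lay under the TIF1γ Δ/Δ floor. The part of these markers in the difference of Slc7a7 was not tested. In bulk RNA, fewer cells of a type and less RNA per cell cannot be told apart.

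Slc3a2, the heavy chain that all 4 measured light chains pair with, gave 658 on the TIF1γ Δ/Δ and 499 on the wild type array (log2 0.42, 1.34-fold). The shared partner was therefore under 1.5-fold apart while Slc7a5 was 3.02-fold apart. The second heavy chain, Slc3a1, was measured on neither array. Of the 10 light chains of the list, the 6 others (Slc7a9, Slc7a10, Slc7a11, Slc7a12, Slc7a13 and Slc7a15) also lay under both floors, including the cystine-glutamate exchanger Slc7a11 with 4.75 on the TIF1γ Δ/Δ and 8.04 on the wild type array.

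The cationic carriers of the same family work without a heavy chain. Slc7a1 (CAT-1), which takes up arginine and lysine, gave 1003 on the TIF1γ Δ/Δ and 479 on the wild type array (log2 1.09, 2.13-fold). Its second measured probe set gave 279 and 194 on these arrays, a log2 difference of 0.55, so both were higher but only the stronger signal passed 2-fold. With the median of its measured probe sets the gene was at 0.82, and with loess scaling at 0.997. Slc7a4, a relative with no established substrate, gave 70.0 on the TIF1γ Δ/Δ and 80.8 on the wild type array (log2 -0.18), and its other measured probe set was at 0.093. Slc7a2, Slc7a3 and Slc7a14 lay under both floors.

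**Figure D2:**
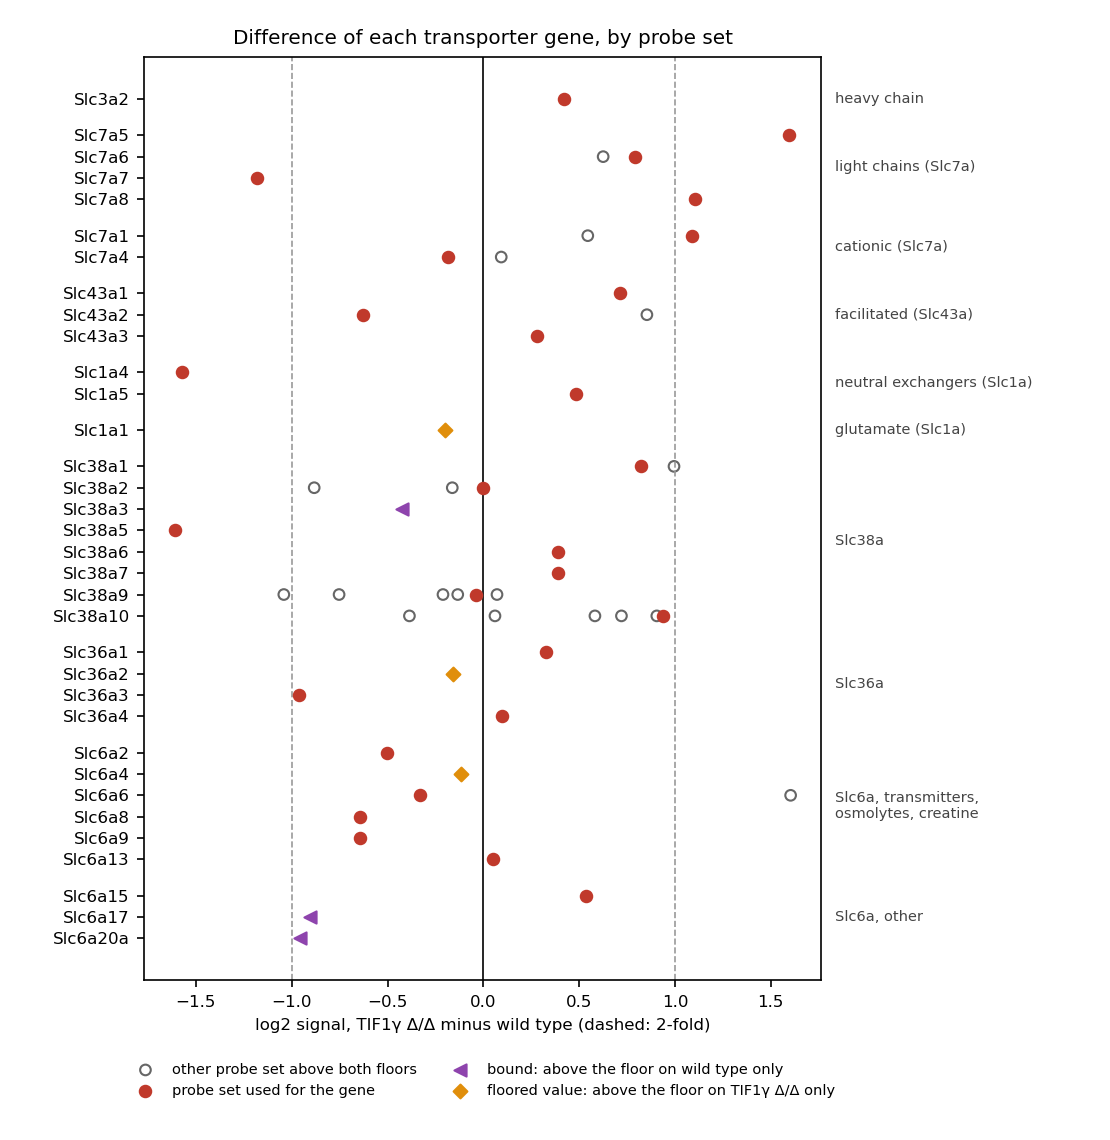
Log2 difference (TIF1γ Δ/Δ minus wild type) of the 34 measured transporters, with filled red points for the probe set that represents the gene and open points for its other probe sets above both floors; triangles and diamonds mark genes above the floor on 1 array only. The light chains Slc7a5, Slc7a6 and Slc7a8 lie right of 0 and Slc7a7 left, and the probe sets of Slc6a6 and Slc43a2 lie on opposite sides of 0.

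The promoters of the transporters at least 2-fold apart are shown because genes of this kind are known targets of Atf4, which acts on C/EBP-ATF response elements, and of Myc, which binds E-boxes. RefSeq windows of GRCm38.p6 were used for 5 of these 6 genes, from 250 bases before the annotated start up to it, on the sense strand and 5′ to 3′, with the first listed window of each gene. No window was available for Slc7a5, so its promoter was not searched. Capitals mark a match to the response element core TGATGNAA or to the E-box CACGTG, searched on both strands; the 2 motifs share no match here.
Slc7a1, chr5:148399905-148400154 (- strand): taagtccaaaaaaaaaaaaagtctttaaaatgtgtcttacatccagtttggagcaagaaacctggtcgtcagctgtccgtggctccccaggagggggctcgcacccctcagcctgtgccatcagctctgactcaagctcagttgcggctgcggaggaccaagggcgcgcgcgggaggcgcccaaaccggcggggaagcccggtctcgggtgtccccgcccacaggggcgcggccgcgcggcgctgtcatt
Slc7a8, chr14:54781887-54782136 (- strand): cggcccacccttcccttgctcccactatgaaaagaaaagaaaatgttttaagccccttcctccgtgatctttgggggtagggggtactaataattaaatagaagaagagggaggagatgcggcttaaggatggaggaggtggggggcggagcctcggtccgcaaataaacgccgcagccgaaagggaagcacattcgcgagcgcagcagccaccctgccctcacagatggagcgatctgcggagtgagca
Slc7a7, chr14:54417945-54418194 (- strand): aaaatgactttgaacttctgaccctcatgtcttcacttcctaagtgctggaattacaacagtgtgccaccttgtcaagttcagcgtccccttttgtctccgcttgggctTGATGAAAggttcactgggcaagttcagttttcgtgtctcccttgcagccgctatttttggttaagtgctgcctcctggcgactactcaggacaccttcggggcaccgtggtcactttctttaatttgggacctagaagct
Slc1a4, chr11:20332714-20332963 (- strand): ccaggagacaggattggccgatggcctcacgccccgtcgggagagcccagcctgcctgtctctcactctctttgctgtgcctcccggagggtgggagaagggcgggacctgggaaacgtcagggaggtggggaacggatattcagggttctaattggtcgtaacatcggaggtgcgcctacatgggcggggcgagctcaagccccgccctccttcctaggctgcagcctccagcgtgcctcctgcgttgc
Slc38a5, chrX:8271131-8271380 (+ strand): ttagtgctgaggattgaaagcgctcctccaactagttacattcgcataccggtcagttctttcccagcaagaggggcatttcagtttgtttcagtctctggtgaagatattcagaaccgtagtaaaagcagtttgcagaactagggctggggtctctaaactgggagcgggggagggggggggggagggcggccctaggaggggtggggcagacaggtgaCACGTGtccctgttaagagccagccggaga
The window of Slc7a7 holds 1 response element core (TGATGAAA), 141 bases before the start, and that of Slc38a5 holds 1 E-box, 30 bases before it. The windows of the 2 higher genes shown, Slc7a1 and Slc7a8, hold neither set of letters, nor does that of Slc1a4. Slc7a1 has 2 listed windows and Slc7a7 has 5, and only the first of each was used here. Among the first windows of all 27025 genes in the table, 3.53% hold the response element core and 6.05% the E-box. Among the 43 transporters with a window, 3 hold the core and 9 the E-box, and among the 23 of these that were measured, 1 and 4 do. The 4 measured genes with an E-box are Slc38a5 (log2 -1.61), Slc36a1 (log2 0.32), Slc38a7 (log2 0.39) and Slc43a1 (log2 0.71), so they differ in direction. A match describes letters and is not evidence of binding.

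The sodium-coupled Slc38a carriers split between genes with higher, equal and lower signal. Slc38a1 (SNAT1), an importer of glutamine and other small neutral amino acids, gave 547 on the TIF1γ Δ/Δ and 315 on the wild type array (log2 0.82). Its other probe set gave 353 and 179.8 on these arrays (log2 0.995). Both probe sets were higher and just under 2-fold.

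Slc38a2 (SNAT2), which carries similar substrates and is known to be induced when amino acids run short, gave 1093 on the TIF1γ Δ/Δ and 1112 on the wild type array (log2 -0.00042). Its 2 weaker probe sets were at -0.16 and -0.88. The strongest signal was therefore equal on both arrays while the others were lower. Slc38a10, a further member of the family, gave 1128 on the TIF1γ Δ/Δ and 598 on the wild type array (log2 0.94), and 5 of its 6 measured probe sets were higher.

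Slc38a5 (SNAT5), a glutamine carrier of system N, was the transporter with the largest negative difference, at 25.2 on the TIF1γ Δ/Δ and 78.1 on the wild type array (log2 -1.61, 3.05-fold lower, 1 probe set). It remained at least 2-fold lower under all 10 alternative settings, from -1.63 to -1.16, of which the alternative probe set rules could not change the value. Slc38a5 is also known from erythroid cells. Erythroid markers were lower on the same array, 7 of 9 measured ones by at least 2-fold, against 6.01% of all genes. The summed signal of these markers was 856 on the TIF1γ Δ/Δ and 2240 on the wild type array over the 10 on the array. The defining genes Slc4a1 (17.7 against 271), Klf1 (149 against 496) and Alas2 (0.40 against 68.6) were among them, Alas2 under the TIF1γ Δ/Δ floor. The part of these markers in the difference of Slc38a5 was not tested.

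The lysosomal members were under 1.5-fold apart on the probe sets that represent them. Slc38a9, which senses lysosomal arginine for mTORC1, gave 78.7 on the TIF1γ Δ/Δ and 82.3 on the wild type array (log2 -0.041), with its 6 probe sets above both floors between -1.04 and 0.071. Slc38a7, an exporter of glutamine from lysosomes, gave 52.2 and 40.5 on these arrays (log2 0.39). Slc38a6 gave 56.2 on the TIF1γ Δ/Δ and 43.6 on the wild type array (log2 0.39). Slc38a3 was measured on the wild type array only, at 15.9 against 4.44 on the TIF1γ Δ/Δ array, which makes it at least 1.34-fold lower. Slc38a4 lay under both floors.

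The neutral amino acid exchangers of the Slc1a family went opposite ways. Slc1a5 (ASCT2), the glutamine exchanger of proliferating cells, gave 179.7 on the TIF1γ Δ/Δ and 130.5 on the wild type array (log2 0.49, 1.40-fold). Slc1a4 (ASCT1), which exchanges alanine, serine, cysteine and threonine, gave 12.6 on the TIF1γ Δ/Δ and 38.1 on the wild type array (log2 -1.57, 2.97-fold lower). The TIF1γ Δ/Δ signal of Slc1a4 lay just above the floor of 11.7, and its other 2 probe sets lay under both floors. With the floor at the 65th percentile its difference was -0.32. Of the 5 glutamate transporters, Slc1a1 gave 12.3 on the TIF1γ Δ/Δ and 11.9 on the wild type array, measured on the TIF1γ Δ/Δ array only because the floors differ, and the others (Slc1a2, Slc1a3, Slc1a6 and Slc1a7) lay under both floors.

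The Slc43a facilitated carriers, which need neither sodium nor a heavy chain, were each under 2-fold apart. Slc43a1 (LAT3), a carrier of large neutral amino acids, gave 47.3 on the TIF1γ Δ/Δ and 29.4 on the wild type array (log2 0.71). Slc43a2 (LAT4) had probe sets that disagreed: the stronger one gave 92.1 on the TIF1γ Δ/Δ and 144.6 on the wild type array (log2 -0.63), and the other gave 78.4 and 44.1 (log2 0.85). No direction can be given for Slc43a2, which is among the 9 genes counted as at least 1.5-fold lower. Slc43a3, known as a nucleobase carrier, gave 242 on the TIF1γ Δ/Δ and 203 on the wild type array (log2 0.28).

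Among the proton-coupled Slc36a carriers, Slc36a1, which exports small neutral amino acids from lysosomes, gave 56.8 on the TIF1γ Δ/Δ and 46.1 on the wild type array (log2 0.32). Slc36a4 gave 51.1 and 48.5 on these arrays (log2 0.099). Both were under 1.5-fold apart. Slc36a3 gave 16.7 on the TIF1γ Δ/Δ and 33.0 on the wild type array (log2 -0.96, 1.95-fold lower), just short of 2-fold and near the floor. Slc36a2 gave 12.7 on the TIF1γ Δ/Δ and 11.1 on the wild type array and was measured on the TIF1γ Δ/Δ array only.

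The 20 Slc6a genes include the neurotransmitter carriers of neurons, and 11 of them lay under both floors. Of the 9 measured, none reached 2-fold, against 8.55% of all genes. However, 2 of the 9, Slc6a17 and Slc6a20a, have only a bound and may lie beyond it. Slc6a4, above the TIF1γ Δ/Δ floor only, counts as under 2-fold by its floored value of -0.11. With no floor Slc6a4 was at 1.42. Slc6a6, the taurine carrier, gave 149 on the TIF1γ Δ/Δ and 191 on the wild type array (log2 -0.33) with 1 probe set, but 86.9 and 29.1 (log2 1.604, 3.04-fold higher) with another. These disagree in direction, and the count uses the first, which was brighter on average.

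Slc6a9, the glycine carrier GlyT1 that serves haem synthesis in red cell precursors, gave 26.9 on the TIF1γ Δ/Δ and 42.7 on the wild type array (log2 -0.64), beside the lower erythroid markers given above. Slc6a8, the creatine carrier, gave 12.6 and 19.9 on these arrays (log2 -0.64). Slc6a9 and Slc6a8 were lower by under 2-fold on the probe sets that represent them. Slc6a15, a carrier of branched-chain amino acids and proline, gave 54.2 on the TIF1γ Δ/Δ and 38.02 on the wild type array (log2 0.54).

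The noradrenaline carrier Slc6a2 gave 28.8 on the TIF1γ Δ/Δ and 41.5 on the wild type array (log2 -0.50), and the GABA and taurine carrier Slc6a13 gave 45.0 and 44.2 (log2 0.049). Slc6a17 (8.55 on the TIF1γ Δ/Δ, 22.2 on the wild type array) and the proline carrier Slc6a20a (3.54 and 22.97) were measured on the wild type array only. These were at least 1.87-fold and at least 1.94-fold lower. The serotonin carrier Slc6a4 was measured on the TIF1γ Δ/Δ array only, at 13.1 against 5.31, and since 13.1 lies under the wild type floor no fold is given.

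On the probe sets that represent them, the 26 transporters measured on neither array had signals from 0.32 to 9.15 on the TIF1γ Δ/Δ and from 0.33 to 11.02 on the wild type array. Nearest to the floors from below, on the same probe sets, was Slc7a10, at 9.15 on the TIF1γ Δ/Δ and 11.02 on the wild type array. Nearest from above among genes measured on both arrays were Slc6a8 and Slc1a4, with 12.6 each on the TIF1γ Δ/Δ array. Beside those named above, the unmeasured genes were Slc6a3, Slc6a5, Slc6a7, Slc6a11, Slc6a12, Slc6a14, Slc6a16, Slc6a18, Slc6a19, Slc6a20b and Slc6a21.

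**Figure D3:**
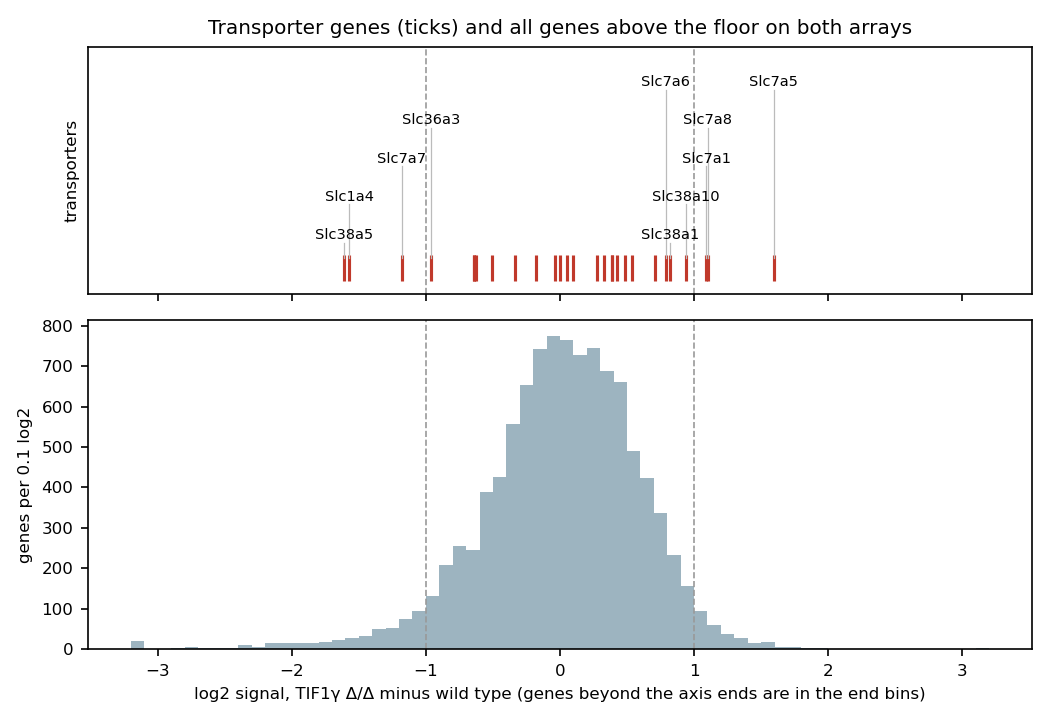
Top, ticks for the 28 transporters measured on both arrays, named where at least 0.75 from 0; bottom, histogram of the log2 difference (TIF1γ Δ/Δ minus wild type) of all 10365 genes measured on both arrays, with 18 genes beyond the axis placed in the end bins. The transporters spread over the same range as most genes, with Slc7a5 (1.59) in the thin upper tail.

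Where several probe sets read 1 transporter, their agreement gives the only internal check. Of the 9 transporters with at least 2 probe sets above both floors, Slc7a1, Slc7a6 and Slc38a1 had all of them higher, Slc38a10 had 5 of 6 higher and Slc38a2 all 3 below 0, 1 of them at -0.00042. Slc6a6, Slc43a2 and Slc7a4 had probe sets on both sides of 0, and so had Slc38a9, with 5 of 6 lower. Slc7a5, Slc7a8, Slc7a7, Slc38a5 and Slc1a4, which make up 5 of the 6 genes at least 2-fold apart, each rested on 1 probe set. Over all genes, the scatter of probe sets around their gene's mean was an SD of 0.452 (log2, 4534 genes), which measures probe sets and not mice.

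The genes around these transporters were read from lists of carriers, sensors, response genes and enzymes. Among 18 measured carriers outside the 7 families, mostly of amino acids and peptides, none passed 2-fold upwards, against 2.53% of all genes. Downwards 3 did, against 6.01% of all genes, and the median was 0.26. The list includes Slc29a3, known as a nucleoside carrier (log2 0.79). Slc66a1, which exports cationic amino acids from lysosomes, gave 17.7 on the TIF1γ Δ/Δ and 75 on the wild type array (log2 -2.06). Slc15a3, a lysosomal peptide carrier of immune cells, was lower by at least 3.76-fold, with 1.33 on the TIF1γ Δ/Δ and 44.6 on the wild type array, and the peptide carrier Slc15a2 gave 68.6 and 170.4 (log2 -1.29). The lower markers of neutrophils and macrophages stand beside these genes too, and their part was not tested. The mitochondrial serine carrier Sfxn1 differed the other way, at 1317 on the TIF1γ Δ/Δ and 828 on the wild type array (log2 0.69).

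Of 34 measured genes of mTORC1 and amino acid sensing, 1 was at least 2-fold higher, against 2.53% of all genes. None was at least 2-fold lower, against 6.01% of all genes, and the median was 0.040. The higher gene was Akt1s1, a subunit that restrains mTORC1, with 37.6 on the TIF1γ Δ/Δ and 18.7 on the wild type array (log2 1.03, the only 1 of its 3 probe sets above both floors). Mtor itself gave 149 on the TIF1γ Δ/Δ and 90.2 on the wild type array (log2 0.75), but only 1 of its 2 probe sets above both floors was higher. The leucine sensor Sesn2 gave 49.8 and 57.0 (log2 -0.17).

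The response to amino acid shortage runs through the kinase Gcn2 (Eif2ak4) and the transcription factor Atf4, and Slc7a5, Slc3a2, Slc7a1 and Slc7a11 are among its known targets. Of 24 measured genes of this list, 3 passed 2-fold downwards, against 6.01% of all genes. None passed it upwards, against 2.53% of all genes, and the median was 0.12. The lower genes were Asns, which makes asparagine, with 298 on the TIF1γ Δ/Δ and 654 on the wild type array (log2 -1.11, 2 of 2 probe sets), Trib3 with 39.4 and 92.8 (log2 -1.21) and Ddit3 with 72.1 and 155.4 (log2 -1.09). Atf4 gave 1151 and 1453 on these arrays (log2 -0.31). Mthfd2, a folate enzyme also counted in the list, gave 187 on the TIF1γ Δ/Δ and 103 on the wild type array (log2 0.89). Of the transporters named as targets, Slc7a5 (log2 1.59) and Slc7a1 (log2 1.09) were past 2-fold upwards, Slc7a1 with its strongest probe set only. Slc3a2 was at 0.42, and Slc7a11 lay under both floors. The part of this response in these differences was not tested.

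Myc is also known to raise Slc7a5 and Slc1a5 in growing cells. Myc gave 505 on the TIF1γ Δ/Δ and 448 on the wild type array (log2 0.20), and 1 of 10 measured genes of its list, the partner Max, was at least 2-fold higher, with 69.5 and 32.9 on these arrays (log2 1.10). Over all genes, 2.53% were at least 2-fold higher. The list median was 0.26. Of 15 measured enzymes of glutamine, branched-chain, arginine and glutathione metabolism none reached 2-fold, against 8.55% of all genes. The median of these enzymes was -0.020, with Arg2 known only to be at least 1.70-fold lower. The ornithine decarboxylase Odc1 gave 2552 on the TIF1γ Δ/Δ and 2347 on the wild type array (log2 0.14), and the mitochondrial aspartate aminotransferase Got2 gave 2161 and 1437 (log2 0.61), each with 2 of 3 probe sets above both floors in this direction.

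**Figure D4:**
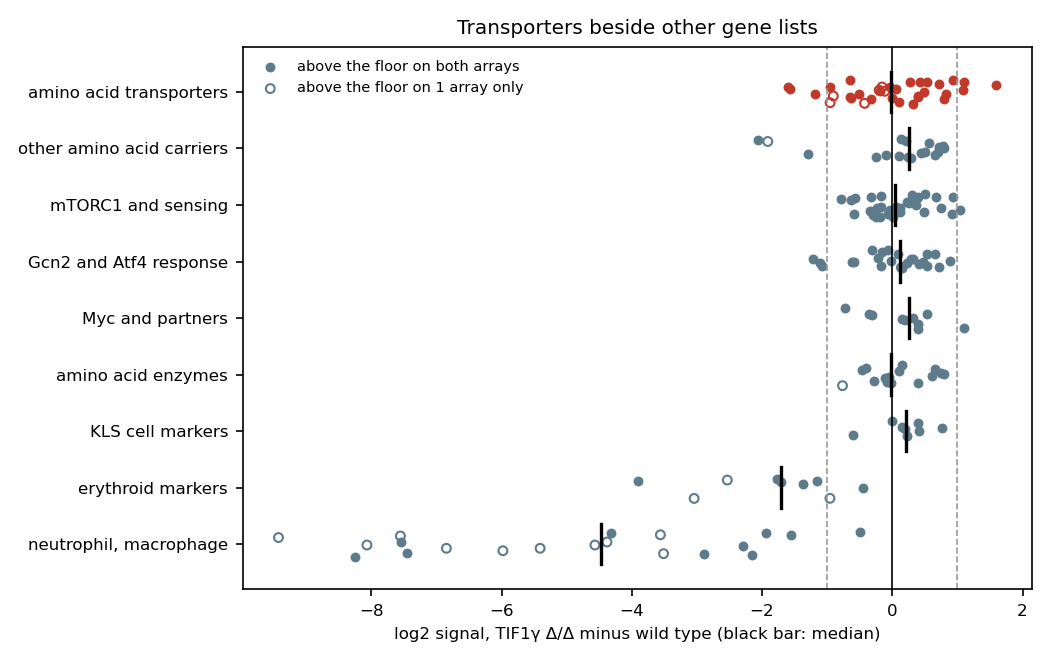
Log2 difference (TIF1γ Δ/Δ minus wild type) of each measured gene, by list, with the transporters in red, open points for genes above the floor on 1 array only and a black bar at the median. Transporters and their pathway lists have medians from -0.020 to 0.26, while the erythroid markers (-1.71) and the neutrophil and macrophage markers (-4.47) lie far to the left.

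Markers of other cells that the sort could have let through differed widely. Besides the 2 lists given above, 3 of 4 measured B cell markers and 4 of 6 measured T and NK cell markers were at least 2-fold lower, against 6.01% of all genes. Summed signals were 205 on the TIF1γ Δ/Δ and 678 on the wild type array for B cells, and 184 and 458 for T and NK cells. Megakaryocyte and platelet markers went the other way, with 3 of 7 at least 2-fold higher, against 2.53% of all genes. The sum of these markers was 2841 on the TIF1γ Δ/Δ and 1721 on the wild type array. The KLS markers had a sum of 5612 on the TIF1γ Δ/Δ and 4507 on the wild type array, and none of the 8 was 2-fold apart, against 8.55% of all genes. The part of these lists in the differences of Slc7a5, Slc7a8 and Slc7a1 was not tested.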

How the data were processed

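RNA of 2 sorted KLS samples, 1 per genotype, was measured on 1 Affymetrix array each, after a two-cycle biotin labelling per the labels' protocols. The deposited intensities are linear MAS5 probe set values, per the submitters' processing notes. The sources used here name no MAS5 version and no filter. The mean after trimming 2% at each end was 100.001 on both arrays, so they had been scaled. Without the 64 controls, 34945 had 1 annotated gene, and 34741 of these were matched to RefSeq (GRCm38.p6) by Entrez identifier to update symbols. Each gene took the value of the probe set that was brightest on average (log2). With 1 array per group there was no test, and genes were counted by size (2-fold).

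Every transporter could be named. From other lists, genes at least 2-fold apart could be named or, where none was, the 2 brightest. Kit and Slc29a3 were named outside this rule, and not every cell marker at least 2-fold apart was named. The transporters and lists were chosen with earlier results of these data known, and Mtor, Sesn2, Atf4, Mthfd2, Sfxn1, Arg2, Myc and the single markers given beside transporters were named after their values were seen. Alternatives covered scaling, floor, probe set rule, pseudocount (16) and threshold. The procedure was tested on simulated data with planted differences larger than 2-fold in genes well above the floor. That test does not measure how reliable the differences given here are. Python 3.11.15, numpy 2.4.6, pandas 2.3.3, statsmodels 0.14.6 and matplotlib 3.10.9 were used.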

Additional observations from a re-analysis of the deposited data

How the results depend on the processing

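Across 10 alternatives that recompute values, 294 of 322 differences of single transporters other than Slc7a5 stayed on their side of 2-fold and within 0.452 (log2, the probe set SD), 28 did not, and no difference at least 2-fold apart changed sign. Many of the 294 could hardly move. The alternative probe set rules cannot change any gene with 1 probe set, and leaving out shared probe sets changed only Slc38a1. Leaving out the scaling moved every value by the same -0.024. Some genes gave no value with the floor at the 65th percentile. The median of -0.020 became 0.15 with quantile scaling, 0.11 with loess scaling, 0.24 with the floor at the 65th percentile, 0.18 with no floor and 0.19 over genes measured on both arrays, so it has no stable sign. The 3 lower transporters became 6 with the floor at the 40th percentile, 6 with no floor, and 1 each with the floor at the 65th percentile, the mean of all probe sets and a pseudocount of 16. The 3 higher ones became 5 with no floor and stayed at 2 or 3 under the other scalings, floors, probe set rules and the pseudocount. At 1.5-fold, 7 were higher and 9 lower, and at 3-fold 1 was higher and 1 lower. The median of measured probe sets was an alternative chosen after seeing the data. Slc7a5 and Slc38a5 kept at least 2-fold under all 10, Slc7a8 under 8, Slc7a1 and Slc1a4 under 7 and Slc7a7 under 6. Slc7a5, Slc38a5 and Slc7a8 have 1 probe set each, so the alternative probe set rules could not change their values. Under the mean of all probe sets Slc7a1 was at 0.45, Slc1a4 at -0.71 and Slc7a7 at -0.73, which takes in weak probe sets at the floor and, for Slc7a1, a second measured one at 0.55. No paired analysis was possible because each group holds 1 array. Low signal over background limits Slc1a4, Slc36a3, Slc6a8 and the genes under a floor.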

Other observations

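Probe sets next to the rule but outside it gave further signal. Slc7a6os, the gene on the strand opposite Slc7a6, gave 82.7 on the TIF1γ Δ/Δ and 75.7 on the wild type array with 1 probe set (log2 0.15) and 75.2 and 48.0 with the other (log2 0.67). Slc36a1os and Slc6a19os lay under both floors, as did a probe set annotated to both Gm13872 and Slc1a2.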
